A study of Homo sapiens with 5 samples.

Results

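The S100 family consists of small calcium-binding proteins of vertebrates, and 10 of its genes were followed here in a liver cancer line made to express ACOT12, a cytosolic acetyl-CoA thioesterase. The members were S100A2, S100A4, S100A6, S100A8, S100A9, S100A10, S100A11, S100A13, S100A14 and S100P. They were found by gene symbol and accounted for 11 of the 28264 probes and 10 of the 19090 named genes on the array. S100A14 had 2 probes and every other member had 1. All 5 arrays carried RNA from MHCC97H, a human hepatocellular carcinoma line with high metastatic potential. The vector was empty in 2 samples, carried ACOT12 in 2 and carried a mutant form of ACOT12 in 1, each after puromycin selection for 1 week. The labels give neither the residue changed in the mutant, nor the promoter of the transgenes, nor whether the cells were clones or pools. Nor do they state that replicate samples were grown apart, so each p-value reflects the scatter of these samples alone, and that scatter may be technical.

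As background, most S100 proteins carry a pair of EF-hand loops per chain and act as dimers. On binding calcium they expose a surface that grips target proteins such as annexins, myosin and cytoskeletal linkers. S100A10 is the exception, as it has lost calcium binding and stays in the binding state. Several members are released from cells and bind surface receptors, among them AGER (RAGE) and TLR4. S100A4 is known as a metastasis-associated protein. S100A8 and S100A9 together form calprotectin, an abundant protein of neutrophils and monocytes. In RefSeq (GRCh38.p14), 9 of the members lie on chromosome 1 between 151982915 and 153634361, a span of 1651 kb. S100P lies on chromosome 4 (6693878 to 6697170).

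The transgene was read first, as the check of the labels. ACOT12 read 59.2 and 18.0 intensity units with empty vector, 4733 and 4859 with ACOT12 and 4030 with the mutant. Both transgenes were thus told from empty vector on every array by their readings, though neither passed the threshold of 0.05. The differences were 7.15 ± 0.50 log2 for ACOT12 and 6.90 ± 0.62 for the mutant (limma adjusted p = 0.122 and 0.0688). A member that did not pass the same test is therefore not shown to be unchanged. The readings do not tell ACOT12 from its mutant, as these differed by 0.25 ± 0.62 log2 (limma adjusted p = 0.873). Median intensity over all probes ranged from 616 to 825, and medians lay within 0.42 of each other on the log2 scale. Pairwise correlation of log2 values over all probes, which are not independent replicates, was 0.984 for the empty vector pair, 0.991 for the ACOT12 pair and 0.965 to 0.983 for pairs with the mutant array. Dim genes differed more between arrays than bright ones. In the dimmest 10% of the genes tested, the median log2 difference from empty vector was 0.32 with ACOT12 and −0.29 with the mutant. In the brightest 10% it was −0.03 and −0.02. All 7 hepatocyte markers that were measured (ALB, APOA1, APOB, TTR, TF, SERPINA1 and AFP) read above the 25th percentile on every array, and their summed intensity ran from 14747 to 19151. The same held for all 5 endothelial and all 6 biliary and epithelial markers, so these readings do not tell the cell types apart.

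Brightness put the members into separate classes. The plot of readings by array shows 7 genes between 14.2 and 19.3 on the log2(intensity + 1) scale and 3 genes under 8. S100A4 and S100A6 were among the 4 brightest of all probes on every array, and S100A10, S100A11, S100P, S100A2 and S100A13 lay at or above the 92.5th percentile. S100A14, S100A8 and S100A9 lay between the 11th and the 30.6th percentile. A probe's brightness depends on its own sequence as well as on its transcript, so no member's level was set against another's. A gene was tested where its brightest probe had a mean log2 value of at least 7.34, the 25th percentile of all probes. This held for 8 members, and S100A8 and S100A9 are described without a test.

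**Figure D1:**
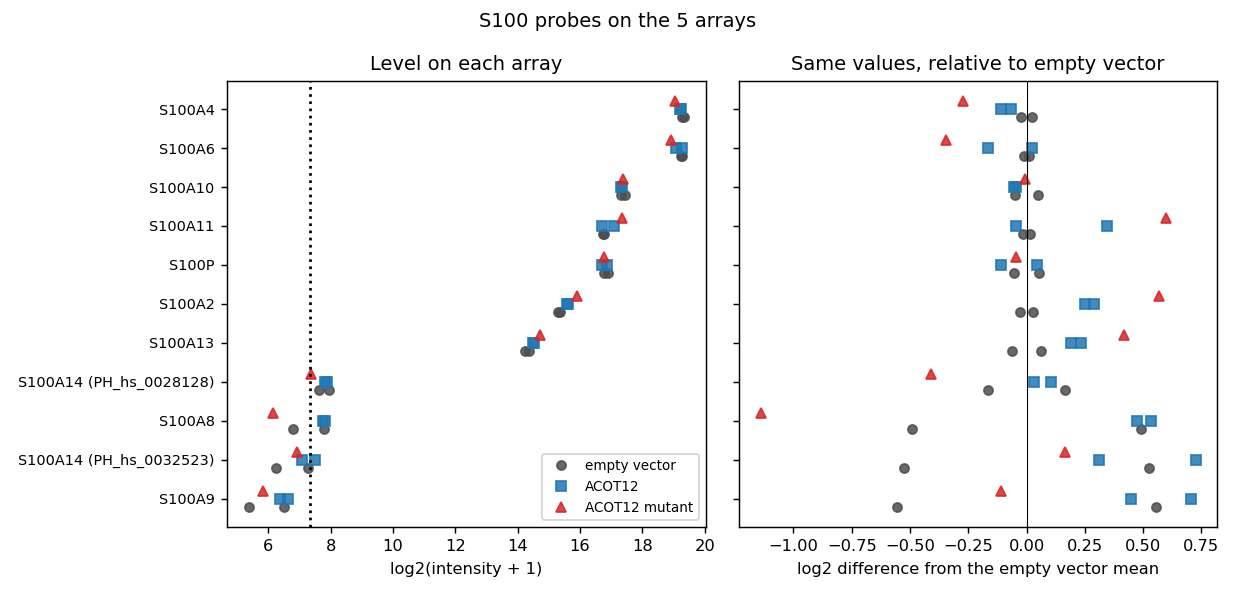
Each point is 1 array. The left panel gives log2(intensity + 1) of the 11 S100 probes, ordered by their mean, with the filter at 7.34 as a dotted line, and the right panel gives the same values minus the mean of the 2 empty vector arrays. The mutant array stands highest for S100A11, S100A2 and S100A13 and lowest for S100A4, S100A6, S100A8 and the brighter S100A14 probe, while the dim probes at the bottom scatter by about 1 log2 unit between the empty vector arrays.

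No member passed the test in any comparison (limma on all 5 arrays, Benjamini-Hochberg over 15053 genes, threshold 0.05). For ACOT12 against empty vector, 0 of 8 members were called, where 0% of all genes were. The adjusted p of members ran from 0.994 to 0.999, and 0 of 8 had an unadjusted p under 0.05, where 3% of all genes did and 2.55% did with a higher reading. The 8 members split into 4 higher and 4 lower, where 61.4% of all genes read higher and 38.6% lower, with a median log2 difference of 0.02 beside 0.05 for all genes. For the mutant against empty vector, 0 of 8 were called, where 0.0332% of all genes were. Here 2 of 8, S100A2 and S100A11, had an unadjusted p under 0.05, both higher. That mark was reached by 20.7% of all genes and, with a higher reading, by 3.69%. Of the 8, 3 read higher and 5 lower, where 36.8% and 63.2% of all genes did, with a median of −0.03 beside −0.13 for all genes. For ACOT12 against the mutant, 0 of 8 were called, where 9.23% of all genes were, and 0 of 8 had an unadjusted p under 0.05, where 22.6% of all genes did and 21% did with a higher reading. Here 4 read higher and 4 lower, where 65.7% and 34.3% of all genes did. These shares are not those of genes of like brightness. All tested members but S100A14 belonged to the brightest 10% of genes. There, 5 of 1506 genes were called with ACOT12 above the mutant, beside 257 of 1506 in the dimmest 10%. The median log2 difference was −0.02 in the former and 0.56 in the latter. The members are thus not shown to be spared. The variance models with a trend and with robust moderation also called 0 members in each comparison. Centring the array medians was the scaling that changed this, with 2 of 8 members called for the mutant against empty vector and 1 of 8 for ACOT12 against the mutant. The shares of all genes called under that scaling were 9.61% and 13.4%, so nothing particular to the members was read from these counts.

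**Figure D2:**
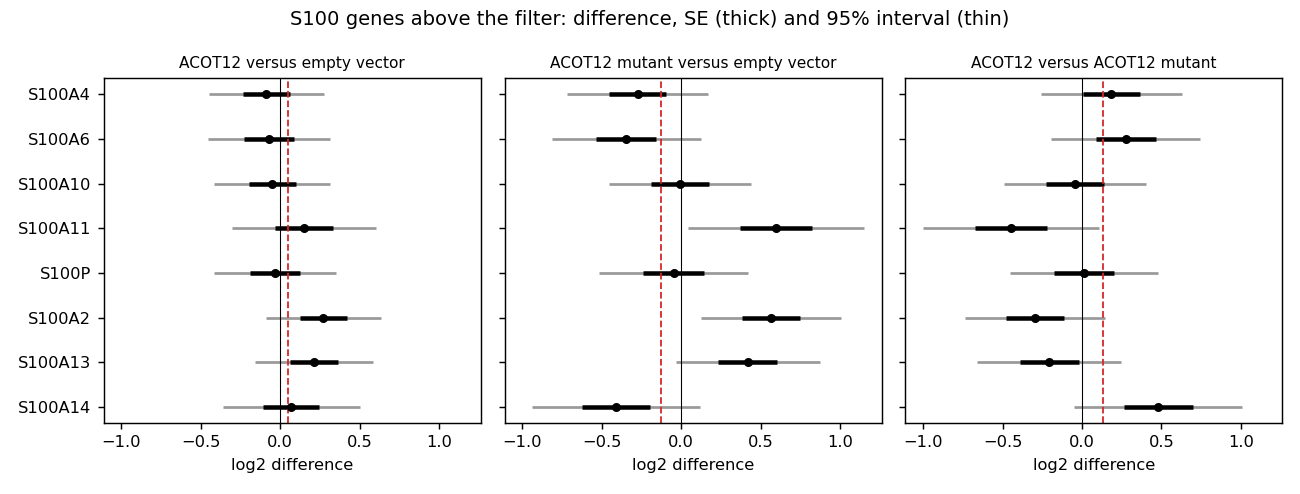
Log2 differences of the 8 tested S100 genes in the 3 comparisons, with the moderated SE as a thick bar and the 95% interval as a thin bar. The dashed red line marks the median of all genes. The intervals of S100A2 and S100A11 lie above 0 for the mutant against empty vector, and every other interval includes 0.

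S100A2, an epithelial member that acts largely in the nucleus, gave the smallest F-test p of the 8 tested members over the 3 groups. It read 40633 and 42256 intensity units with empty vector, 49319 and 50701 with ACOT12 and 61377 with the mutant. The 3 groups did not overlap, with empty vector lowest and the mutant highest. Means were 41444 ± 1147 (SD, n = 2) with empty vector and 50010 ± 977 (SD, n = 2) with ACOT12, a ratio of 1.21. The log2 difference of ACOT12 from empty vector was 0.27 ± 0.15 (SE), with a 95% interval of −0.09 to 0.63 and an adjusted p of 0.994. The mutant read 1.48 times the empty vector mean, or 0.57 ± 0.18 log2 (interval 0.12 to 1.01, adjusted p = 0.161). ACOT12 against the mutant gave −0.30 ± 0.18 (interval −0.74 to 0.15, adjusted p = 0.433). The order of the groups was thus visible in all 5 arrays, yet no difference passed the test.

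S100A13, which takes part in the release of the growth factor FGF1 and of IL1A from cells, was ordered the same way. Its readings were 21005 and 19265 with empty vector, 23670 and 22966 with ACOT12 and 26907 with the mutant. Again the groups did not overlap. ACOT12 exceeded empty vector by 0.21 ± 0.15 log2 (interval −0.16 to 0.58, adjusted p = 0.994) and the mutant exceeded it by 0.42 ± 0.18 (interval −0.03 to 0.87, adjusted p = 0.273). ACOT12 read −0.21 ± 0.18 relative to the mutant (adjusted p = 0.610). The S100A13 gene (chromosome 1, 153618799 to 153634361) holds the whole 3606 bases of S100A1, so a reading could come from either where the probe's place and strand are not known. The same limit holds for S100A8, which overlaps S100A7A by 6064 bases, and for S100A4, which overlaps S100A5 by 65.

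S100A11, a partner of annexin A1, read highest in the mutant array. It gave 109851 and 111939 intensity units with empty vector, 107453 and 140915 with ACOT12 and 167877 with the mutant. The ACOT12 pair disagreed, with replicate 1 under both empty vector arrays and replicate 2 above them. The difference of ACOT12 from empty vector was 0.15 ± 0.18 log2 (interval −0.30 to 0.60, adjusted p = 0.999), and it was −0.05 without ACOT12 replicate 2 and 0.35 without ACOT12 replicate 1. The mutant read 1.51 times the empty vector mean, or 0.60 ± 0.23 log2 (interval 0.04 to 1.15, adjusted p = 0.213). ACOT12 against the mutant gave −0.45 ± 0.23 (interval −1.003 to 0.11, adjusted p = 0.335).

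The choice of scaling decides whether the mutant calls for S100A2 and S100A11 stand. Centring the medians moved the median of all genes from −0.13 to 0.16 for the mutant against empty vector, from 0.05 to −0.08 for ACOT12 against empty vector and from 0.13 to −0.28 for ACOT12 against the mutant. With it, the mutant exceeded empty vector by 0.85 for S100A2 (adjusted p = 0.0499) and by 0.88 for S100A11 (adjusted p = 0.0395), and S100A11 read −0.86 for ACOT12 against the mutant (adjusted p = 0.0374). Relative to the median of all genes, the mutant difference was 0.69 for S100A2, 0.72 for S100A11 and 0.54 for S100A13 as deposited. That median was −0.13, while the median of the brightest 10% of genes was −0.02. The 3 differences are therefore smaller when set against genes of like brightness. Quantile normalization and cyclic loess called none of them. Over the 16 alternatives, the mutant difference ran from 0.54 to 0.85 for S100A2 and from 0.58 to 0.88 for S100A11. For S100A13 it ran from 0.36 to 0.70. ACOT12 read above empty vector by 0.14 to 0.31 for S100A2 and by 0.08 to 0.28 for S100A13. Other filters and other moderation cannot change these differences, and omitting an ACOT12 array cannot change those of the mutant. The 16 alternatives are thus not separate checks of their size. All 3 genes belong to the brightest 10%, in which the middle 90% of genes lay between −0.37 and 0.40 for the mutant and between −0.21 and 0.16 for ACOT12.

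The promoters of the pair with the largest mutant readings over empty vector, S100A2 and S100A11, are given with those of S100A4 and S100A6, the pair of bright members whose mutant reading lay under both empty vector readings. Each window holds the 250 bases before the RefSeq gene start (GRCh38.p14, minus strand, written 5′ to 3′ along the gene). The S100A2 window is chr1:153565845-153566094, that of S100A11 chr1:152037005-152037254, that of S100A4 chr1:153545807-153546056 and that of S100A6 chr1:153535992-153536241. Capitals mark every match, on both strands, to the motif TATAAA, to its relative CTATAA, to the GC box GGGCGG and to the AP-1 motif TGACTCA. The former pair can overlap by 5 bases. The motifs were chosen with the windows in view.
S100A2: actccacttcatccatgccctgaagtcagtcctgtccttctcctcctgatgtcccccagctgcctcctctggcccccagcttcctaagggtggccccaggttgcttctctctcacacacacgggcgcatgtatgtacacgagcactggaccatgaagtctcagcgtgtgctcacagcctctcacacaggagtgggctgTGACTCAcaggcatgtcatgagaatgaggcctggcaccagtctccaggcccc
S100A11: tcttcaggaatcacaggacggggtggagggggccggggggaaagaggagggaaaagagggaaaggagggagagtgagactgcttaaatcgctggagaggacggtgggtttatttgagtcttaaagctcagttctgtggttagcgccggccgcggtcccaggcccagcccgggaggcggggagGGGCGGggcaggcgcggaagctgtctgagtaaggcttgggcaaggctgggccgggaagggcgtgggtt
S100A4: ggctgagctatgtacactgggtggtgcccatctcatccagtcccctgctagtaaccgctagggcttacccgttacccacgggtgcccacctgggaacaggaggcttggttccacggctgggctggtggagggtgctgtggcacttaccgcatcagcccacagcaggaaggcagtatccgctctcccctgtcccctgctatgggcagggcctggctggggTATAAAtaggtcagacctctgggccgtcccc
S100A6: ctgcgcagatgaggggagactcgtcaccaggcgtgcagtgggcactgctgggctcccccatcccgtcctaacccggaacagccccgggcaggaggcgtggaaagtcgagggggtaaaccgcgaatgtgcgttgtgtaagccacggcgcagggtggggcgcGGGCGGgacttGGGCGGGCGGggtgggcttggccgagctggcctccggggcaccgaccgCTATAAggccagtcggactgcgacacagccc
S100A4 and S100A6 each hold a TATA-like match that begins 31 bases before the gene start, TATAAA in the former and CTATAA in the latter. S100A6 also holds 3 GC boxes at 75 to 90 bases, S100A11 holds 1 at 68 bases, and S100A2 holds the AP-1 letters at 52 bases. Of 35116 windows of the same length, 10.7% held TATAAA, 5.93% CTATAA, 42.6% GGGCGG and 4.2% TGACTCA. The windows of S100P and S100A9 at the gene start also held TATAAA, and those of S100A9, S100A10 and S100A13 held GGGCGG. That of S100A9 held CTATAA as well. The TATA-like match is thus not particular to S100A4 and S100A6. A match describes letters and is not a measured binding site.

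S100A4, the metastasis-associated member that binds non-muscle myosin, was the brightest or second brightest of the 28264 probes on every array. It read 639857 and 660134 intensity units with empty vector, 620843 and 602199 with ACOT12 and 537742 with the mutant. Both ACOT12 readings lay under both empty vector readings, and the mutant lay under all 4. The difference was −0.09 ± 0.15 log2 for ACOT12 (interval −0.45 to 0.27, adjusted p = 0.999) and −0.27 ± 0.18 for the mutant (interval −0.72 to 0.17, adjusted p = 0.448), the latter turning to 0.01 with centred medians. ACOT12 read 0.19 ± 0.18 above the mutant (adjusted p = 0.643), which turned to −0.23 with centred medians.

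S100A6 (calcyclin), which binds the ubiquitin ligase adaptor CACYBP, was lowest in the mutant array. It read 628472 and 620089 with empty vector, 635199 and 556639 with ACOT12 and 490959 with the mutant. The ACOT12 replicates lay on either side of the empty vector pair, and the mutant lay under all 4. The log2 difference was −0.07 ± 0.16 for ACOT12 (interval −0.45 to 0.31, adjusted p = 0.999) and −0.35 ± 0.19 for the mutant (interval −0.82 to 0.12, adjusted p = 0.367). ACOT12 read 0.28 ± 0.19 above the mutant (adjusted p = 0.496), and −0.14 with centred medians. Without ACOT12 replicate 2, the ACOT12 difference from empty vector was 0.03.

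Both genes sit at the top of the measured range. The highest intensity on an array was 542532 to 660134, and no second probe shared it. Whether these readings approach the scanner's ceiling was not tested. Of the 20 brightest genes, 13 read lower with the mutant than with empty vector, with a median of −0.08 and a range from −0.35 to 0.34. S100A6 was the lowest of the 20, and S100A4 had 1 gene below it. For ACOT12, 17 of the 20 read lower, with a median of −0.05.

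S100A10 (p11), the partner of annexin A2 at the membrane, did not differ beyond its error. It read 176924 and 164942 with empty vector, 164687 and 165446 with ACOT12 and 169944 with the mutant. All 3 groups lay within the range of the empty vector pair, apart from ACOT12 replicate 1 just below it. The difference was −0.05 ± 0.15 log2 for ACOT12 (interval −0.41 to 0.32) and −0.01 ± 0.18 for the mutant (interval −0.45 to 0.44), with adjusted p of 0.999 and 0.986. The mutant difference became 0.28 with centred medians.

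S100P, a placental and tumour-associated member that binds ezrin, was likewise level. Its readings were 121053 and 112438 with empty vector, 108087 and 120238 with ACOT12 and 112944 with the mutant. The ranges of all groups overlapped. The difference was −0.03 ± 0.16 log2 for ACOT12 (interval −0.42 to 0.35, adjusted p = 0.999) and −0.05 ± 0.19 for the mutant (interval −0.51 to 0.42, adjusted p = 0.916). With centred medians the mutant value turned to 0.24 and ACOT12 against the mutant turned from 0.01 to −0.40. As deposited, these intervals of S100A10 and S100P reach to about 0.5 log2 units from 0 with either transgene. They do not cover the shift with scaling, rest on scatter that may be technical and do not show that the levels were equal.

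S100A14, an epithelial member, was dim. Over the 16 alternatives its mutant difference from empty vector ran from −0.58 to −0.07. Other filters, other moderation and omission of an ACOT12 array cannot change that value. Both comparisons with ACOT12 changed sign in some alternatives. Its brighter probe (PH_hs_0028128) read 247 and 196 with empty vector, 225 and 237 with ACOT12 and 165 with the mutant. The ACOT12 readings lay inside the empty vector range, and the mutant lay below it. The difference was 0.07 ± 0.18 log2 for ACOT12 (adjusted p = 0.999), −0.41 ± 0.22 for the mutant (adjusted p = 0.347) and 0.48 ± 0.22 for ACOT12 against the mutant (adjusted p = 0.274). After quantile normalization the first turned to −0.24 and the last to −0.17. The second probe (PH_hs_0032523), under the filter, read 155 and 74.3 with empty vector, 134 and 178 with ACOT12 and 121 with the mutant, so it placed the mutant array inside the empty vector range. The untested log2 difference of this probe for the mutant was 0.16, opposite in direction to that of the brighter probe.

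The calprotectin chains S100A8 and S100A9 lay near the floor. S100A8 read 217 and 109 intensity units with empty vector, 215 and 224 with ACOT12 and 69.4 with the mutant. The empty vector arrays lay apart, at 7.77 and 6.78 on the log2 scale. The ACOT12 arrays read 7.75 and 7.81, and the mutant array was lowest at 6.14. Untested log2 differences were 0.50 for ACOT12 and −1.14 for the mutant against empty vector. ACOT12 exceeded the mutant by 1.64, a value of 1.03 after quantile normalization and 1.12 with equalized background. S100A9 read 88.8 and 40.5 with empty vector, 82.2 and 98.6 with ACOT12 and 55.7 with the mutant, and the mutant lay between the empty vector arrays. Its difference for ACOT12 was 0.58 and turned to −0.16 after quantile normalization. Calprotectin is abundant in myeloid cells, and the 8 markers of these cells were divided. PTPRC, LYZ, CSF1R and MPO, 4 of the 8, read under the 25th percentile on every array. The other 4 read above it on every array, with CD68 at 8177 to 11186, CD14 at 2507 to 3543, ELANE at 1030 to 1087 and ITGAM at 553 to 1034. The summed intensity of the 8 was 13191 to 13305 with empty vector, 14086 to 16042 with ACOT12 and 15499 with the mutant, and its part in the S100A8 and S100A9 readings was not tested. Detection flags were not used here, so these readings were not shown to lie above background.

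Whether the ranges of 2 groups overlap was also counted for the 8 tested members. For ACOT12 against empty vector, 2 of 8 were higher without overlap (S100A2 and S100A13) and 1 was lower (S100A4), where 20.2% and 11.5% of all genes were. For the mutant against empty vector, 3 were higher (S100A2, S100A11 and S100A13) and 3 lower (S100A4, S100A6 and S100A14), where 29.6% and 54.7% of all genes were. For ACOT12 against the mutant, 4 were lower (S100A2, S100A10, S100A11 and S100A13) and 3 higher (S100A4, S100A6 and S100A14), where 22.5% and 51.1% of all genes were. Nothing particular to the family was read from these counts. The first 2 comparisons share the empty vector arrays.

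**Figure D3:**
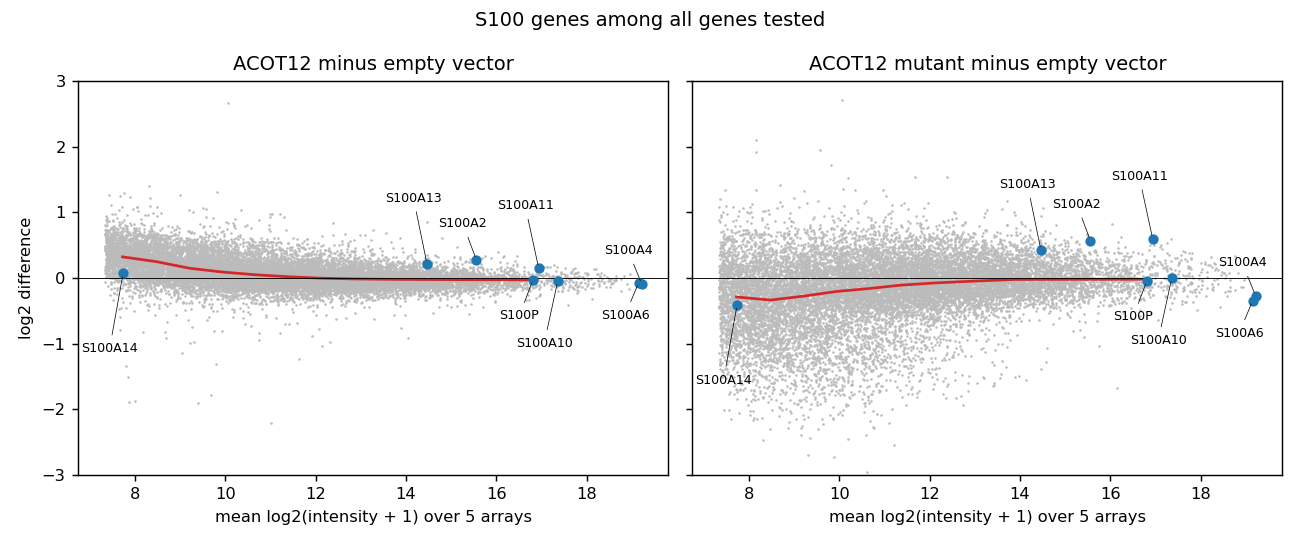
Log2 difference from empty vector against mean log2(intensity + 1) for the 15053 genes tested (grey), with the 8 tested S100 genes in blue and the median of each 10% of genes by brightness as a red line. The axis is cut at 3 log2 units in each direction, which leaves out 5 genes for ACOT12 and 8 for the mutant. The median line leaves 0 among dim genes, upward with ACOT12 and downward with the mutant, while 7 of the 8 S100 genes lie in the bright part, where the line is near 0.

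The rest of the family was taken from a list of 10 other S100 genes, of which 7 were above the filter. With ACOT12 all 7 read higher than with empty vector, with a median of 0.30, and 0 of 7 were called (limma, lowest adjusted p = 0.994, and 0 of 7 at an unadjusted p under 0.05). Of all genes, 61.4% read higher, with a median of 0.05, and 0% were called. S100A12, S100A5, S100Z and S100A7 were dim (mean log2 7.63 to 9.57), and all genes of like brightness had medians of 0.15 to 0.32. S100A1, S100A3 and S100A16 were brighter. After quantile normalization 5 of the 7 read higher and after cyclic loess 4. With the mutant, 2 read higher and 5 lower (median −0.04), a count that turned to 5 higher and 2 lower with centred medians, quantile normalization and cyclic loess, and 0 of 7 were called (2 of 7 at an unadjusted p under 0.05). Of all genes, 36.8% read higher and 63.2% lower with the mutant, 0.0332% were called and 20.7% had an unadjusted p under 0.05. S100A16, a neighbour of S100A14, followed the order of S100A2 and S100A13, at 19667 and 20018 with empty vector, 22674 and 26171 with ACOT12 and 26784 with the mutant, though the second ACOT12 array came near the mutant. Its differences from empty vector were 0.30 ± 0.16 and 0.43 ± 0.19 (adjusted p = 0.994 and 0.280), and its other probe gave −0.03 and 0.40. S100A12, a myeloid relative of S100A8, read 0.33 ± 0.17 higher with ACOT12, and −0.01 after cyclic loess. S100Z read −0.19 ± 0.21 with the mutant, and 0.16 after quantile normalization.

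S100A1 and S100A7 were the 2 family genes that passed a test, where ACOT12 stood above the mutant. S100A1, a member known from heart and skeletal muscle, read 7956 and 4951 intensity units with empty vector, 8501 and 7836 with ACOT12 and 2728 with the mutant. The mutant lay under all other arrays, and the empty vector replicates stood apart from each other. ACOT12 exceeded the mutant by 1.58 ± 0.30 log2 (limma adjusted p = 0.0379), and the mutant read −1.202 ± 0.30 relative to empty vector (adjusted p = 0.113, and −0.92 with an adjusted p of 0.0305 with centred medians). Without empty vector replicate 2 the mutant difference of S100A1 was −1.54 (adjusted p = 0.00494). A second, dimmer S100A1 probe gave 0.83 and −0.56 for the same differences, without a call. S100A7 (psoriasin), a skin antimicrobial member, read 923 and 618 with empty vector, 984 and 1274 with ACOT12 and 358 with the mutant. ACOT12 exceeded the mutant by 1.64 ± 0.30 (adjusted p = 0.0349), and the mutant read −1.08 ± 0.30 relative to empty vector (adjusted p = 0.132, and −1.36 with an adjusted p of 0.0126 without empty vector replicate 2). Both calls were lost after quantile normalization (adjusted p = 0.0559 for S100A1 and 0.0622 for S100A7), without a filter (0.124 and 0.123), without ACOT12 replicate 1 (0.258 for both) and without ACOT12 replicate 2 (0.231 for both), and that of S100A1 also with averaged probes (0.0568). Of all genes, 9.21% were called in this direction. In either direction 1389 genes were called, but 5 after quantile normalization and 1 without a filter. The loss is thus not particular to S100A1 and S100A7. Over the 16 alternatives ACOT12 exceeded the mutant by 1.17 to 1.78 for S100A1 and by 1.19 to 1.83 for S100A7. Other filters and other moderation cannot change these differences. Among keratinocyte markers, SPRR1B read 131 in the mutant array against 385 to 614 in the others. The summed intensity of the 5 such markers measured was 56073 and 58158 with empty vector, 53825 and 59054 with ACOT12 and 64330 with the mutant, of which KRT10 alone gave 43229 to 58523. The sum and the single markers differ in direction, as 3 of the 4 tested read lower with the mutant than with empty vector (SPRR1B −1.70, KRT1 −0.56 and KRT14 −0.39, median −0.47) and KRT10 read 0.26 higher. KRT5 lay under the 25th percentile on every array. The part of these markers in the S100A7 reading was not tested.

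**Figure D4:**
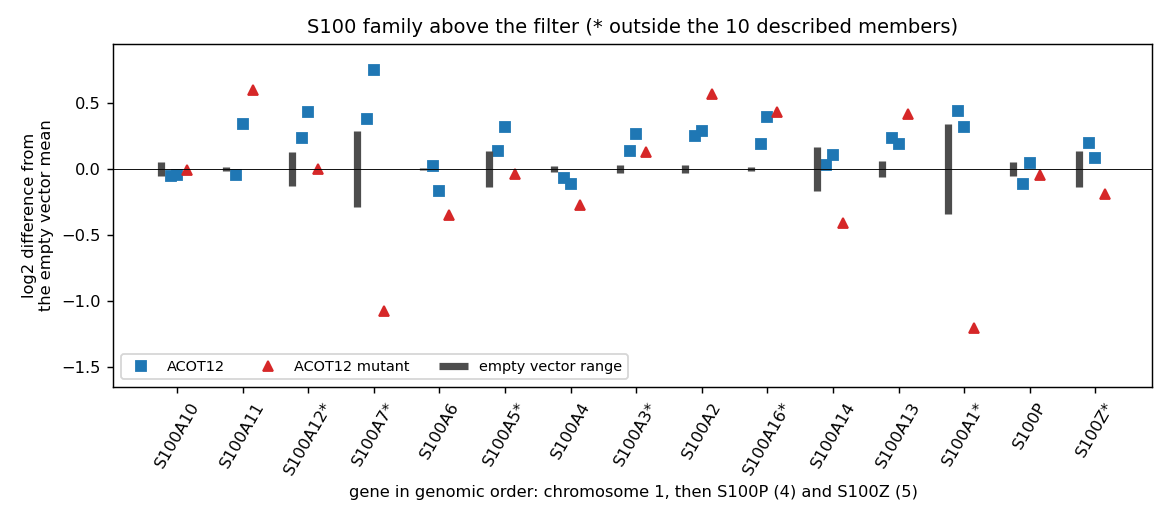
Log2 difference of each ACOT12 array (blue squares) and of the mutant array (red triangles) from the empty vector mean for the 15 S100 genes above the filter, in genomic order, with the range of the empty vector pair as a grey bar. Asterisks mark genes outside the 10 members. The mutant array is lowest at S100A1 and S100A7 and highest at S100A11 and S100A2, and there S100A13 and S100A1, which overlap on chromosome 1, lie on opposite sides of 0.

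Receptors of released S100 proteins and their signalling partners (10 genes, all tested) were split evenly with ACOT12, 5 higher and 5 lower, with 0 called. The receptor genes AGER and TLR4 gave −0.11 ± 0.15 and −0.22 ± 0.17, and MCAM gave −0.21 ± 0.16 (adjusted p of the 3 from 0.997 to 0.999). With the mutant, 3 read higher and 7 lower and 0 were called, where 0.0332% of all genes were (limma). An unadjusted p under 0.05 was reached by 1 gene of the 10, where 20.7% of all genes reached it. That gene was MYD88, the adaptor of TLR4, at −1.05 ± 0.28 (adjusted p = 0.120), which was called without empty vector replicate 2 (−1.35, adjusted p = 0.00915). BSG (basigin), a receptor of S100A9, read 0.46 ± 0.26 and the fatty acid receptor CD36 −0.66 ± 0.35. MYD88 was also the 1 gene of the list called between ACOT12 and the mutant, where 9.21% of all genes were called in that direction. MYD88 read 1.51 ± 0.28 in this comparison (limma adjusted p = 0.0349). Its readings were 16726 and 11032 with empty vector, 18569 and 18818 with ACOT12 and 6564 with the mutant. The call was lost after quantile normalization (adjusted p = 0.0534), without a filter and without either ACOT12 array. A second MYD88 probe went the other way (−0.33), and the mean of both probes did not pass (0.59, adjusted p = 0.138). The TLR4 cofactor LY96 read 0.33 ± 0.23 there, and −0.08 with centred medians.

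Intracellular partners of the members (17 measured, 16 tested) gave 0 calls in each comparison (limma). Of all genes, 0%, 0.0332% and 9.23% were called for ACOT12, for the mutant and between them. At an unadjusted p under 0.05 the count of partners was 1 for ACOT12, 1 for the mutant and 0 between them. In the same order, 3%, 20.7% and 22.6% of all genes reached that mark. With centred medians 2 of 16 were called for the mutant and 1 of 16 between the transgenes, where 9.61% and 13.4% of all genes were. With ACOT12, 11 read higher and 5 lower (median 0.14), and with the mutant 9 and 7 (median 0.14). Of all genes, 61.4% read higher with ACOT12 and 36.8% with the mutant. The gene with the smallest p for ACOT12 was FGF1, the cargo of S100A13, at 0.98 ± 0.34 (adjusted p = 0.994). FGF1 read 239 and 320 with empty vector, 764 and 393 with ACOT12 and 344 with the mutant, so 1 ACOT12 array carried the difference, and its other probes above the filter gave 0.13 and 0.39. CACYBP, the partner of S100A6, read 196 and 172 with empty vector, 212 and 263 with ACOT12 and 289 with the mutant. Its differences from empty vector were 0.36 ± 0.18 and 0.65 ± 0.22 (adjusted p = 0.994 and 0.178), and the second reached 0.93 (adjusted p = 0.0277) with centred medians. PLAT, the plasminogen activator whose substrate binds S100A10, read 0.71 ± 0.35 with the mutant (adjusted p = 0.321) and 0.99 (adjusted p = 0.0174) with centred medians. The PLAT value was 0.31 without empty vector replicate 1 and 1.11 without empty vector replicate 2, the latter with an adjusted p of 0.0302. MDM2, a ubiquitin ligase bound by several S100 proteins, read 0.34 ± 0.16 with ACOT12 and 0.44 ± 0.20 with the mutant, and ANXA5 0.29 ± 0.18 with ACOT12. The annexin partners ANXA1 (−0.00 ± 0.15 and −0.22 ± 0.18) and ANXA2 (−0.13 ± 0.15 and −0.17 ± 0.18) differed from empty vector by little more than their errors with either transgene.

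Other EF-hand calcium sensors (16 of 19 measured and tested) served as a comparison outside the family. With ACOT12, 10 read higher and 6 lower, and with the mutant 6 and 10, with medians of 0.03 and −0.13 that lay near those of all genes. None was called against empty vector, where 0% of all genes were with ACOT12 and 0.0332% with the mutant (limma). At an unadjusted p under 0.05 the count was 0 of 16 for ACOT12 and 3 of 16 for the mutant. Of all genes, 3% and 20.7% reached that mark. For the mutant, EFHD1 (−1.21 ± 0.29, adjusted p = 0.105) was called with centred medians (−0.92, adjusted p = 0.0294), and without empty vector replicate 2 both EFHD1 (−1.51, adjusted p = 0.00631) and PVALB (−1.17, adjusted p = 0.0178) were called. Between ACOT12 and the mutant, PVALB (parvalbumin, 1.23 ± 0.22, adjusted p = 0.0349) and EFHD1 (a mitochondrial EF-hand protein, 1.52 ± 0.29, adjusted p = 0.0374) were called. These were 2 of 16, where 9.21% of all genes were called in that direction, so nothing particular to these sensors was read from the count. PVALB read 2365 and 1865 with empty vector, 2470 and 2444 with ACOT12 and 1048 with the mutant. EFHD1 read 905 and 597, 842 and 994, and 318 in the same order. As for S100A1 and S100A7, both calls were lost without a filter, without either ACOT12 array and after quantile normalization (adjusted p = 0.0535 and 0.0704), and that of PVALB also with centred medians (adjusted p = 0.0503). EFHD2, a calcium-dependent actin-binding relative of EFHD1, ran opposite to it, at 0.75 ± 0.24 with the mutant (adjusted p = 0.162), and at 1.03 (adjusted p = 0.0125) with centred medians.

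The genes most like S100A2 across arrays were sought among the other 15052, by the Euclidean distance between log2 values over the 5 arrays after each gene was centred on its own mean. The nearest was FBXO36, an F-box gene, at a distance of 0.03 log2 units, with 238 and 242 intensity units with empty vector, 285 and 290 with ACOT12 and 351 with the mutant. STAR, a mitochondrial cholesterol transport protein, followed at 0.07, PRMT7, an arginine methyltransferase, at 0.09, NOTUM, a secreted Wnt-inactivating enzyme, at 0.10 and ELAPOR2 at 0.10. All 5 were dimmer than S100A2, with mean log2 values from 7.80 to 11.58 against 15.56. The distances describe these 5 arrays, and nothing was tested from them.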

How the data were processed

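Total RNA of 5 MHCC97H samples was extracted with Trizol, amplified with amino allyl nucleotides and labelled with Cy5, 1 sample an array, per the labels' protocols. The deposited values are probe intensity on a linear scale, read as such from the values. The authors' scanner, background correction and scaling are not named by any label or header read here. Groups came from the submitters' titles. Of 28264 probes, 25893 had 1 gene symbol in the platform annotation, 0 had several and 2371 had none. Symbols were checked by gene identifier against RefSeq (GRCh38.p14), and 0 changed.

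Negative intensities were raised to 0 and log2 was computed after adding a pseudocount of 1, so differences are on the log2(intensity + 1) scale. Those of dim probes depend on the pseudocount. For S100A8, ACOT12 exceeded the mutant by 1.64 with a pseudocount of 1 and by 1.13 with the pseudocount at the 10th percentile. Medians lay within 0.5 log2 of each other, so no scaling was applied. The probe with the highest mean stood for its gene, and probes under the 25th percentile of mean log2 (7.34) were left out, leaving 15053 genes. A group-means model, with no covariate, was fitted over the 5 arrays in limma 3.58.1 in R 4.3.3 (2 residual degrees of freedom, prior 3.96), so the single mutant array is assumed to vary like the other groups. Tests were two-sided, adjusted by Benjamini-Hochberg over all genes, with a threshold of 0.05. Errors are moderated SE for log2 differences and SD for intensities, and intervals are 95%. An exact permutation test was not run, as 2 arrays against 2 cannot reach the threshold. The procedure was tested on simulated data with independent noise and with changes added to the ACOT12 arrays only. That simulation held no array-wide shift and no trend with brightness. It read only ACOT12 against empty vector, so it does not cover the mutant comparisons. Precision is limited by how few arrays there are.

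The members, lists and tests were chosen with earlier results of these data known. All members are named, with up to 4 genes of smallest p per list and comparison among other S100 genes, receptors, partners and other EF-hand genes, and the 5 genes nearest to the member with the smallest F-test p. Lists of fused-type S100 genes (7 measured, 1 tested, 0 called) and of markers of hepatocytes, myeloid cells, keratinocytes, fibroblasts, endothelial cells and biliary cells were counted. Against empty vector none of these marker lists had a call, and between ACOT12 and the mutant 1 keratinocyte, 1 fibroblast and 1 endothelial marker were called. They were called among 4, 3 and 5 tested, where 9.21% of all genes were called in that direction. Alternatives were 3 scalings, equalized background, another pseudocount, other filters, other treatments of several probes, moderation with a trend or robust, a block for replicate number, and fits that omit each replicated array. Listed genes without a probe here were not analysed.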

Additional observations from a re-analysis of the deposited data

How the results depend on the processing

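With 1 mutant array and pairs elsewhere, every mutant difference rests on a single array, and dim readings could not be told from background. Leave-one-out kept the probe and filter chosen on all 5 arrays. The count of members called was 0 under every alternative except centred medians, which gave 2 for the mutant against empty vector and 1 for ACOT12 against the mutant.

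Counts over all genes moved far more, and the cause was not tested. For ACOT12 against empty vector the count went from 0 to 45 with centred medians (18 higher, 27 lower), 2 with quantile normalization, 2 with cyclic loess, 1 each with equalized background, the pseudocount at the 10th percentile and a variance trend, 192 without a filter and 8 with averaged probes, and from 0 to 5 over the leave-one-out fits. For the mutant against empty vector it went from 5 (0 higher, 5 lower) to 1446 (550 higher, 896 lower), 8 (1 and 7) with quantile normalization, 187 (22 and 165) with cyclic loess, 10 with equalized background, 8 with the pseudocount, 150 (137 and 13) without a filter, 141 with a filter at the 50th percentile, 11 with averaged probes and 483 with a trend, and from 0 to 1986 with arrays left out. For ACOT12 against the mutant it went from 1389 (1386 higher, 3 lower) to 5 with quantile normalization, 1 without a filter and 638 with the stricter filter, and from 0 to 2343 with arrays left out. Centring kept a like count but another balance (1339 higher, 683 lower).

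Empty vector and ACOT12 share replicate numbers, but nothing says that a number marks a shared culture or day, and the replicate differences of the 2 groups correlated at 0.16 across genes. With the replicate number as a block the counts over 15053 genes were 1, 1635 and 2485 in the 3 comparisons, and no member was called. The block uses up part of the 2 residual degrees of freedom, and the single mutant array carries replicate number 1. Among the other genes named, 6 were called with this block for the mutant against empty vector, S100A1 (adjusted p = 0.0174), PVALB (0.027), MYD88 (0.0293), EFHD1 (0.0319), CD36 (0.0352) and PLAT (0.047). Those genes were named for having the smallest p of their lists in that same comparison. Calls among them were thus favoured in advance, and nothing was read from their number.

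Directions turned for values that were not past the threshold. With centred medians, ACOT12 against the mutant read −0.227 for S100A4, −0.136 for S100A6, −0.399 for S100P, −0.0787 for S100A12, −0.079 for S100Z, −0.0791 for LY96, −0.0932 for S100PBP and −0.0391 for SYT1. ACOT12 against empty vector then read −0.0602 for S100A14, and the mutant against empty vector 0.0102 for S100A4, 0.276 for S100A10, 0.237 for S100P and 0.0923 for S100Z. With quantile normalization, ACOT12 against the mutant read −0.169 for S100A14, −0.319 for S100A12, −0.206 for S100Z and 0.0328 for S100A10. ACOT12 against empty vector read −0.236 for S100A14 and 0.0042 for S100P, and the mutant 0.16 for S100Z. With cyclic loess these 7 values were, in the same order, −0.0913, −0.248, −0.114, 0.0245, −0.254, 0.0104 and 0.0935, and S100A12 read −0.0122 for ACOT12. With equalized background S100A14 read −0.155 for ACOT12. With arrays left out, ACOT12 against empty vector ranged from −0.165 to 0.0251 for S100A6, −0.1001 to 0.00109 for S100A10, −0.0454 to 0.346 for S100A11, −0.0978 to 0.235 for S100A14 and −0.11 to 0.0435 for S100P. The mutant ranged from −0.0581 to 0.0431 for S100A10 and −0.1 to 0.00648 for S100P, and ACOT12 against the mutant from −0.0634 to 0.0903 for S100P.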
